A study of Homo sapiens with 7 samples.

Results

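The UGT2 glucuronosyltransferase cluster is a set of 8 genes on chromosome 4: UGT2A3, UGT2B4, UGT2B7, UGT2B10, UGT2B11, UGT2B15, UGT2B17 and UGT2B28. They were found by symbol in the RNA-Seq table, where 13 of 30032 loci carry a listed symbol, and 23303 loci carry any symbol. Of these 13 loci, 9 lie on chromosome 4 and 4 lie on an alternative contig of that chromosome, where both runs were listed at 0. Their chromatin was read over chr4:69382902-70381788 of hg19, which is the span of the genes with 20 kb added at each end, and which holds 4701 of the 14217405 nucleosome positions. The material was HepG2, an established human liver cancer cell line in culture, with no treatment, allele or second cell type in the labels. Nucleosome positions came from native MNase-Seq, in which a nuclease trims uncrosslinked chromatin down to nucleosomes. Histone marks came from 5 ChIP-Seq libraries, 1 each for H3K4me3, H3K9ac, H3K27ac, H3K27me3 and H3K9me3, and expression came from 1 RNA-Seq sample with 2 value columns, here called run 1 and run 2. Each assay has a single sample, so nothing is replicated and no test was possible. Whether the runs are separate cultures is not stated in the sources used here, so the difference between them may be technical.

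UGT enzymes sit in the membrane of the endoplasmic reticulum and join glucuronic acid, taken from UDP-glucuronic acid, to steroids, bile acids, fatty acid products and drugs, which makes them water soluble and ready for export into bile or urine. The liver is the main site of this reaction, and the UGT2B genes arose by repeated duplication, so that neighbouring copies are alike in sequence and each copy has its own promoter. H3K4me3, H3K9ac and H3K27ac are marks of active promoters and enhancers, with H3K4me3 typical of promoters, whereas H3K27me3 and H3K9me3 are marks of repressed chromatin. Here the first group is called activation marks and the second repressive marks. A position that carries all of H3K4me3, H3K9ac and H3K27ac is called trivalent, or "T".

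The start-site sequences come first, to show how far the copies with a sequence available here are alike. RefSeq windows on GRCh38.p14, a different build from the hg19 of the measurements, were matched for 5 of the 8 genes (UGT2A3, UGT2B7, UGT2B10, UGT2B11 and UGT2B15) and were not matched for UGT2B4, UGT2B17 and UGT2B28. The last 200 bases before each start are printed 5′ to 3′ on the strand of the gene, and capitals mark a palindromic pair of arms, GTTANNNNNTAAC, where N is any base.
UGT2B10 (GRCh38.p14, chr4:68815794-68815993, plus strand): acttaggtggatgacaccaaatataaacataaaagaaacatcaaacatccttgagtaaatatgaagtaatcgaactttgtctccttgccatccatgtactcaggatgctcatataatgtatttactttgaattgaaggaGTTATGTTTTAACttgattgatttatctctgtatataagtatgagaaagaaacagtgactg
UGT2B11 (GRCh38.p14, chr4:69214749-69214948, minus strand): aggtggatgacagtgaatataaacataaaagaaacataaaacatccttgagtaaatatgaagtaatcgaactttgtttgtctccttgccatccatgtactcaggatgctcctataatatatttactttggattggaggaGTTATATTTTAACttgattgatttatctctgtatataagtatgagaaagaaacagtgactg
UGT2B15 (GRCh38.p14, chr4:68670653-68670852, minus strand): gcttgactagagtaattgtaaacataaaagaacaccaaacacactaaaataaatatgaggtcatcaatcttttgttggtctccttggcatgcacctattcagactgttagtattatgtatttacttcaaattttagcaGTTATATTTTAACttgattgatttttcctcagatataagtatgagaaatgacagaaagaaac
UGT2B7 (GRCh38.p14, chr4:69096274-69096473, plus strand): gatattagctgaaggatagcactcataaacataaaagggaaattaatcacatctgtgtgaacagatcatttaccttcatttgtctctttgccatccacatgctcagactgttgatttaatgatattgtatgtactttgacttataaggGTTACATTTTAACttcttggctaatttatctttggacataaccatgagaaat
UGT2A3 (GRCh38.p14, chr4:68951805-68952004, minus strand): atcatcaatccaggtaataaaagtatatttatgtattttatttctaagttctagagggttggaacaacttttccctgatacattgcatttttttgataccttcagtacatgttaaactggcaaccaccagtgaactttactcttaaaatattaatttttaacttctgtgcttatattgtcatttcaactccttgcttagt

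Over the whole RefSeq window, from 250 bases before to 50 after the start, UGT2B10 and UGT2B11 were 90.1% identical. UGT2B15 was 69.4% identical to UGT2B10, 70.6% to UGT2B11 and 65.4% to UGT2B7. UGT2A3 was 50.6% to 54.1% identical to the 4 UGT2B windows, the lowest values of the set. Identity between unrelated windows was not computed, so there is no baseline for these values. The 5 windows were 65.0% to 69.7% A or T, and the median of all 35116 windows was 41.3%. The palindromic motif was searched on both strands after the sequences had been seen. It was found in 4 of the 5 windows, starting at base -61 in UGT2B10 and UGT2B11, -62 in UGT2B15 and -52 in UGT2B7, and in 0.268% of all windows. Of the other motifs searched on both strands, the letters GTTAAT were in 0 of 5 (6.88% of all windows), the TATA box TATAAA in 2 of 5 (11.5%), the FOXA core TGTTTAC in 1 of 5 (3.42%), the HNF4 core CAAAGTC in 0 of 5 (3.37%) and the C/EBP core TTGCNNA in 4 of 5 (33.1%). The printed arms do not overlap any of these other matches. The TATA box letters began at bases -244, -230 and -179 in UGT2B10 and at -248 and -183 in UGT2B11. None of these exact letters began closer to the start, and variants of them were not searched. The similar letters TATATAAG stand near the end of the printed UGT2B10 and UGT2B11 sequences. These are descriptions of letters, and binding was not measured.

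Expression of the 8 genes was spread widely, and 3 of them held nearly all of the summed level. UGT2A3, the highest, was 826-fold above UGT2B17, the lowest, in the mean of both runs, 609-fold in run 1 and 1249-fold in run 2, and the locus of UGT2B17 was listed with the status NOTEST. UGT2A3, UGT2B10 and UGT2B7 together gave 95.1% of the members' summed FPKM (RNA-Seq fragments scaled to transcript length and library size, so that levels can be compared between genes). The sum was 190.3 in run 1 and 195.7 in run 2. At the limit used here, a mean FPKM of at least 1, 5 of the 8 genes were called expressed, against 48.7% of all named loci. Run 1 alone and run 2 alone each gave 6. By the mean, the other 3 genes lay between 0.1 and 1, and 0 of 8 lay under 0.1, against 39.8% of all named loci. In run 2 alone, UGT2B17 was at 0.0960. The median of the 8 was 3.69 FPKM, and the median of all named loci was 0.790.

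UGT2A3, which conjugates bile acids, was the highest of the 8, with 114 FPKM in run 1 and 120 in run 2. It ranked 592 of 23303 named loci, of which 2.54% were higher, and it was the single member at or above 100 FPKM, a level reached by 3.11% of named loci. UGT2B10, which attaches glucuronic acid to the nitrogen of nicotine, cotinine and tricyclic drugs, had 34.4 FPKM in run 1 and 35.3 in run 2 over both of its loci on chromosome 4. Its first locus, chr4:69681698-69703549, gave 31.2 and 31.4 of this, and the second, chr4:69866282-69886113, gave 3.25 and 3.91. The second locus was read on the minus strand and the first on the plus strand, so the table places the symbol at different genomic copies.

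UGT2B7, which conjugates morphine, zidovudine and estrogens and is among the UGT enzymes best known in drug metabolism, had 31.6 FPKM in both runs. UGT2B7 and the first UGT2B10 locus differed by 1.01-fold, which is less than the median 1.03-fold difference between runs for the 5568 named loci of 10 to 100 FPKM, so their order is not resolved on that locus. With both loci summed, UGT2B10 was 1.10-fold above UGT2B7, over that median and within the 95th percentile of 1.12-fold. UGT2B4, a bile acid and catechol estrogen enzyme, came next, with 6.64 FPKM in run 1 and 5.45 in run 2. Its runs differed by 1.22-fold, within the 95th percentile of 1.35-fold for the 5036 named loci of 1 to 10 FPKM. The step down from UGT2B7 to UGT2B4 was 5.22-fold, far outside the spread of the runs.

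The remaining 4 genes were low. UGT2B11, an enzyme with few well-described substrates, had 1.09 and 1.59 FPKM in runs 1 and 2. UGT2B28, which acts on steroids, had 0.874 and 1.02, and UGT2B15, which inactivates dihydrotestosterone and conjugates oxazepam, had 1.06 and 0.723. The runs of UGT2B28 and UGT2B15 overlap and their means differ by 1.06-fold, so these neighbours were not separated, and UGT2B11, whose runs do not overlap those of UGT2B28, was 1.42-fold above it, no more than its own 1.45-fold difference between runs. UGT2B17, the main testosterone-conjugating member, was the lowest, with 0.188 and 0.0960 FPKM, and 58.4% of named loci were higher. Its runs differed by 1.96-fold, below the 95th percentile of 3.17-fold for the 2624 named loci of 0.1 to 1 FPKM, and the step from UGT2B15 down to it was 6.29-fold. The copies are alike in sequence, and how RNA-Seq reads that match several copies were counted is not given in the sources used here, so the low values are uncertain. In a bulk culture, a low level in every cell and a higher level in few cells cannot be told apart.

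**Figure D1:**
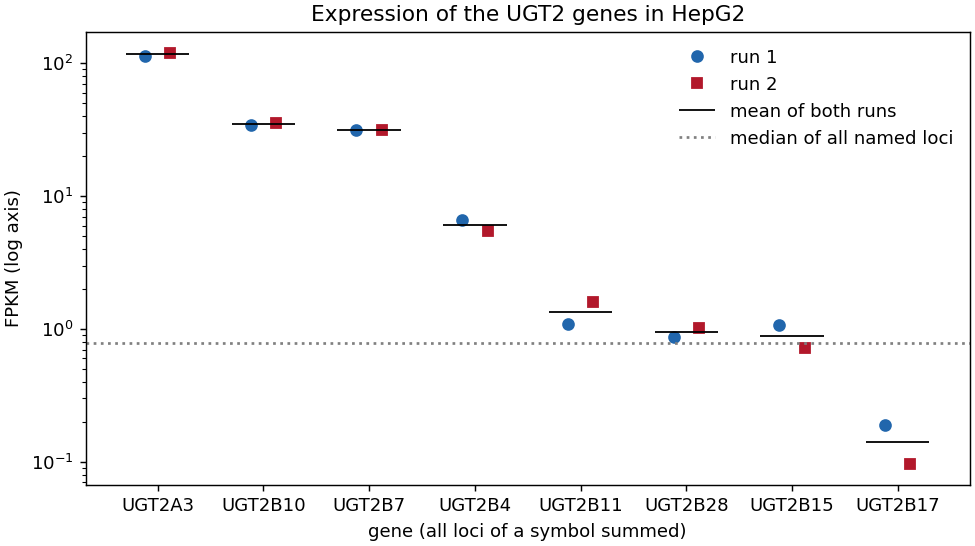
Expression of the 8 UGT2 genes, with FPKM on a log axis, 1 point for each run, a bar at the mean of both runs and a dotted line at the median of all named loci (0.790 FPKM). UGT2A3 stands at 117 FPKM, UGT2B10 and UGT2B7 lie close together at 34.9 and 31.6, and the points of UGT2B15 and UGT2B28 overlap.

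All 8 hepatocyte markers were expressed, from 56.6 FPKM (FGB) to 10011 FPKM (ALB). The leukocyte genes PTPRC and CD3E were listed at 0 while LYZ was at 1173 FPKM, the 3 endothelial markers were at 0.137 to 0.693 FPKM, the 3 stellate or fibroblast markers at 0.164 to 2.0 FPKM, and the cholangiocyte markers KRT19, SOX9 and KRT7 at 110, 39.8 and 0.109 FPKM. Strand, and so the transcription start site (TSS), was inferred from the order of locus numbers and equalled the RefSeq strand for 6408 of 6450 loci checked.

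The marked positions of the cluster were mainly H3K27ac. Of 4701 positions, 175 carried at least 1 mark, or 3.72% (95% exact Clopper-Pearson interval 3.20 to 4.30), against 1.43% (203848 positions) in the genome. All shares rest on the deposited peak lists. These mark fewer positions than the paper counts, so a position unmarked here may have been called in the study. H3K27ac was on 149 positions, 3.17% of those in the region (2.69 to 3.71) and 0.674% of those in the genome, a ratio of 4.7 (3.98 to 5.50). H3K9ac was on 60 positions, at a ratio of 2.37 (1.81 to 3.04). H3K4me3 was on 38, at a ratio of 1.34 (0.95 to 1.84), an interval that includes equality. Against chromosome 4 alone, which is marked less than the genome, the ratios were 8.13 for H3K27ac, 4.26 for H3K9ac and 2.40 (1.70 to 3.29) for H3K4me3. These intervals cover counting error in 1 library only, and neighbouring positions are not independent.

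Among 2791 windows of 999 kb tiled over chromosomes 1 to 22, 1.36% held as many H3K27ac positions as the UGT2 region or more, with a median of 21 per window. The share was 13% for H3K9ac and 29.8% for H3K4me3. H3K27ac alone, without any other mark, was found on 93 positions, and 0.215% of windows (6 windows) reached that number, with a median of 8. Trivalent positions numbered 26, a count that 20.5% of windows reached. The nucleosome map was not denser here, with 4.71 positions per kb in the region and 4.72 in the genome. The region held 4701 positions, fewer than the median window with 5124.

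Acetylation in the cluster was therefore mostly found without H3K4me3. Of the 149 H3K27ac positions, 93 carried no other mark, 62.4% (54.1 to 70.2), against 42.2% of H3K27ac positions in the genome. H3K4me3 accompanied 29 of the 149, or 19.5%, against 48.7% in the genome. H3K9ac/H3K27ac, the pair without H3K4me3, was on 26 positions, 9.16 times its genome share, and trivalent positions were at 1.84 times theirs (1.20 to 2.69). The other activation combinations were few: H3K4me3 alone was on 6 positions, H3K9ac alone on 4, H3K4me3/H3K9ac on 3 and H3K4me3/H3K27ac on 3.

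Repressive marks were sparse in the deposited lists. H3K27me3 was on 5 positions, 0.106% (0.0345 to 0.248) against 0.185% in the genome, and H3K9me3 on 9, 0.191% (0.0876 to 0.363) against 0.243%. As many H3K27me3 positions or more were found in 73.8% of the windows and as many H3K9me3 positions or more in 59.5%, so neither count stands apart. A repressive and an activation mark shared a position at 2 places. One was H3K9ac/H3K9me3, 1658 bp downstream of the first UGT2B10 TSS, and the other was H3K27ac/H3K9me3, upstream of the same TSS.

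The marks divided the cluster into parts with and without activation marks. From the start of the region to a point between UGT2B7 and UGT2B11, 160 of 3159 positions (5.06%) carried an activation mark and 4 (0.127%) a repressive one. In the remaining 345 kb, which hold UGT2B11, UGT2B28 and UGT2B4, 3 of 1542 positions (0.195%) carried an activation mark and 10 (0.649%) a repressive one. All 5 H3K27me3 positions lay in this second part, and all 38 H3K4me3 positions in the first. The longest run without an activation mark, chr4:70036622-70324521, covered 288 kb and 1249 positions. It was not empty of nucleosomes, since 4.34 positions per kb were mapped there, against 4.72 in the genome. The boundary was read from these marks, so the contrast is a description. The genes on both sides of it differ in level as well, but UGT2B15 and UGT2B17, both under 1 FPKM, lie in the first part, and UGT2B4, at 6.05 FPKM, lies in the second.

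**Figure D2:**
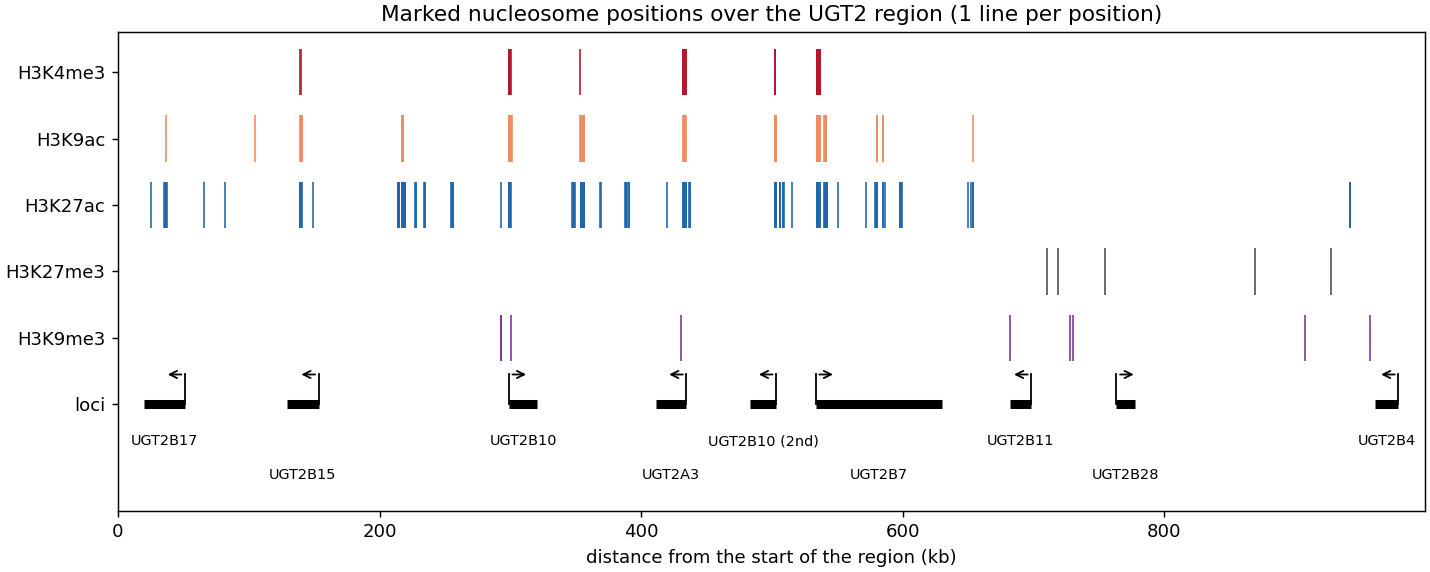
Marked nucleosome positions over the UGT2 region, with distance from its start in kb on the horizontal axis, 1 row per mark and 1 line per position, above the 9 UGT2 loci drawn as bars with an arrow at each TSS. H3K27ac (149 positions) is spread over the left and middle of the map, H3K4me3 (38 positions) is limited to a few places, and the 5 H3K27me3 positions lie to the right of UGT2B7.

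At the TSS, marks were present for the 3 highest genes and absent for the other 5. Within 2 kb of the TSS, 3 of 8 genes had an activation-marked position, against 55.4% of the 14031 named loci with a TSS of their own. The same 3 genes had trivalent positions, against 42.3% of loci, and each had at least 3, against 27.4%. For UGT2B7 this holds at the end of its long expression locus, and marks at its RefSeq start were not counted. No TSS of the 5 lower genes had a marked position of any kind within 2 kb, although 14 to 21 positions were mapped in each of these windows. H3K27me3 or H3K9me3 was found within 2 kb of 1 TSS, that of UGT2B10, against 10.9% of loci.

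At UGT2B7, the TSS is the end of the table's long locus, and the RefSeq start lies elsewhere in the gene, as described further on, so its counts hold for this start only. Of 23 positions within 2 kb of it, 9 were marked, all 9 with H3K4me3, and 8 of these were trivalent. All lay downstream, the first at 0.657 kb, and the trivalent positions reached 10 within 5 kb. UGT2B10 had 10 marked positions of 23 at its first TSS, of which 7 were trivalent, again all downstream, and its nearest marked position was only 0.095 kb from the TSS. At least 7 trivalent positions were found at 3.09% of TSS. Within 1 kb the order turned, with 6 trivalent positions at UGT2B10, 3 at UGT2B7 and 1 at UGT2A3.

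UGT2A3, although expressed at 3.36 times the level of UGT2B10 with both loci summed, had fewer trivalent positions than the first UGT2B10 locus. Of 21 positions within 2 kb, 10 were marked, 8 with H3K4me3, 7 with H3K27ac, 4 with H3K9ac, and 3 were trivalent. Within 5 kb it had 12 H3K4me3 positions and 4 trivalent ones. A smaller number of H3K4me3 positions was found at 90.3% of TSS, and a smaller number of trivalent ones at 72.6%. Within 10 kb of its TSS, UGT2A3 had 3 activation-marked positions upstream and 13 downstream, where UGT2B7 had 0 and 22 and UGT2B10 had 1 and 11.

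The second UGT2B10 locus, at 3.58 FPKM, had 8 marked positions of 18 within 2 kb of its TSS, all with H3K27ac, 6 with H3K9ac and 3 with all of the activation marks. Its 3 trivalent positions equal those of UGT2A3, whose level was 117 FPKM. It had 6 more H3K27ac positions upstream within 10 kb and none of its 14 marked positions in that window was repressive. The number of trivalent positions thus did not follow the level among the marked loci.

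**Figure D3:**
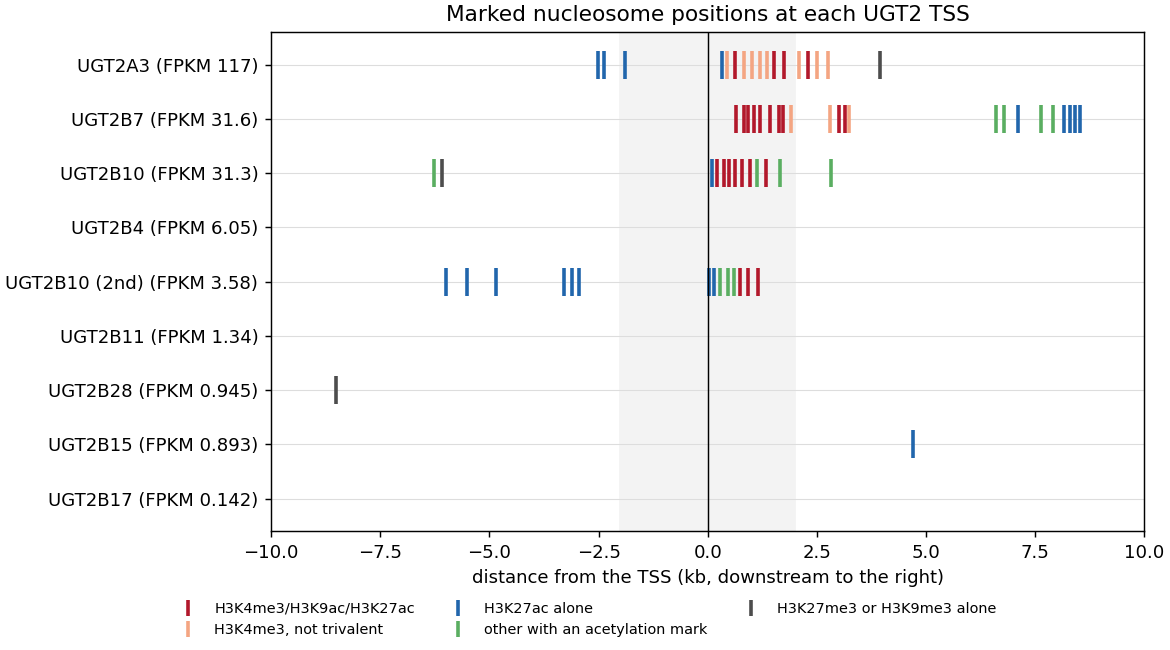
Marked nucleosome positions within 10 kb of each UGT2 TSS, with distance in kb (downstream to the right), 1 row per locus in order of FPKM, coloured by combination of marks and with the 2 kb window shaded. Marks cluster just downstream of the TSS of UGT2A3, UGT2B7 and both UGT2B10 loci, and UGT2B4, UGT2B11 and UGT2B17 have 0 within 10 kb.

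UGT2B4 was expressed without any mark nearby in the deposited lists. None of the 98 positions within 10 kb of its TSS was marked, none of the 86 positions in its body was either, and the nearest activation-marked position was 36.9 kb downstream, beyond its other end. The nearest H3K4me3 position was 442 kb away. Of the 6626 named loci at 1 FPKM or more with a TSS of their own, 6.13% had no marked position within 2 kb and 2.04% had none within 10 kb. At 5 FPKM or more, these shares were 4.62% and 1.09%. Of 3143 loci with no marked position within 10 kb, 1.62% were at or above the FPKM of UGT2B4. UGT2B11, just over the limit at 1.34 FPKM, also had no marked position among 99 within 10 kb, and its nearest activation-marked position was 44.6 kb downstream.

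UGT2B11 can be set beside the first UGT2B10 locus, since their RefSeq windows of 300 bases are 90.1% identical and carry the palindromic motif at the same base. UGT2B10 had 31.3 FPKM and 10 marked positions within 2 kb of its TSS, and UGT2B11 had 1.34 FPKM and 0 marked of 20 positions. The position density of UGT2B11 was 4.93 per kb in the locus, against 4.94 for UGT2B10. With 20 kb added at each end it was 4.89 against 5.25, and within 2 kb of the TSS 20 against 23 positions were mapped. The part that alignment of reads to similar copies has in the difference in marks was not tested.

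UGT2B15 and UGT2B17 had no mark at the TSS but did have acetylated positions inside the locus. UGT2B15 had 8 activation-marked positions of 120 in its body. Of these, 7 lay together at 12.5 to 14.7 kb downstream of the TSS (chr4:69521667-69523906), with 2 of them trivalent and 6 with H3K27ac. UGT2B17 had 6 of 97, of which 5 lay at 14.1 to 15.9 kb downstream (chr4:69418314-69420121), all with H3K27ac, 1 with H3K9ac and 0 with H3K4me3. UGT2B28 had no activation-marked position among 49 in its body, where a count of 0 allows up to 6.12%, its nearest marked position was H3K27me3 at 8.50 kb upstream, and its nearest activation-marked position was 110 kb away.

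The map was thin over 2 of the genes. UGT2B17 had 3.09 and UGT2B28 3.37 positions per kb of locus, against a median of 5.20 per kb over 11289 loci of at least 5 kb (10th percentile 4.55, 90th percentile 5.57). Only 3.75% and 4.42% of these loci were lower. The other 7 UGT2 loci had 4.75 to 5.27 positions per kb. The same pair had 14 and 15 positions within 2 kb of the TSS, at median spacings of 255 bp and 205 bp, and UGT2B10 and UGT2B7 had 23 each, at 159 bp and 160 bp. Why the map is thinner over this pair was not tested, and it leaves fewer positions on which a mark could be found.

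Grouping activation-marked positions at most 3 kb apart gave 30 stretches, of which 24 (80.0%) held no H3K4me3, against 47.1% of 34449 such stretches on chromosomes 1 to 22. Of the 30, 16 held H3K27ac only, 10 were a single position and 14 held 5 positions or more. The stretches with H3K4me3 were those at the TSS of UGT2A3, UGT2B7 and both UGT2B10 loci, the one inside UGT2B15, and one of 12 positions in the gap between UGT2B10 and UGT2A3 (chr4:69736427-69739376), where 1 position carried it. The 3 kb limit was chosen after the data had been seen.

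The longest stretch without H3K4me3 by number of positions lay between genes, at chr4:69596582-69602646. It held 17 positions over 6065 bp, all with H3K27ac, 4 of them with H3K9ac, and it lay 60.2 to 66.3 kb upstream of UGT2B15 on one side and further from UGT2B10 on the other. Of 16236 stretches without H3K4me3 on chromosomes 1 to 22, 0.166% (27 stretches) held 17 positions or more, and the median held 1. Another, of 7 H3K27ac positions at chr4:69770290-69773771, lay 43.7 to 47.2 kb from the UGT2A3 TSS, past the far end of that gene. No target gene was measured for either.

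The locus of UGT2B7, at 96.9 kb the longest of the set, held 40 activation-marked positions of 495 (8.08%), in 7 stretches. Besides the 13 positions at the TSS, 9 lay at 6.53 to 8.60 kb, all with H3K27ac, and 6 lay at 45.3 to 46.7 kb (chr4:69961637-69963004), all with H3K27ac and 2 with H3K9ac. The RefSeq start of UGT2B7, from which the printed window was taken, lies 45.1 kb inside the RefSeq span of the gene on GRCh38.p14. The TSS used here, at the end of the hg19 locus of the expression table, is therefore not the start of the printed window, and coordinates were not converted between builds. No H3K4me3 was found in the 6 positions.

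Levels were also set beside the number of trivalent positions over all loci. The median FPKM was 0.0131 for the 8095 loci with 0 trivalent positions within 2 kb of the TSS, 12.3 for the 1268 loci with 3, 21.9 for the 217 loci with 7 and 19.6 for the 216 loci with 8 or more. UGT2A3, at 117 FPKM with 3, was above the 90th percentile of its class (60.4), and UGT2B4, at 6.05 with 0, was above the 90th percentile of that class (2.0). UGT2B11, UGT2B28, UGT2B15 and UGT2B17, also with 0, were under that percentile and above the median. The first UGT2B10 locus and UGT2B7 lay between the median and the 90th percentile of theirs, and the second UGT2B10 locus, at 3.58 FPKM with 3, lay below the median of its class. The class of UGT2B7 holds for the end of its long expression locus only, not for its RefSeq start.

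**Figure D4:**
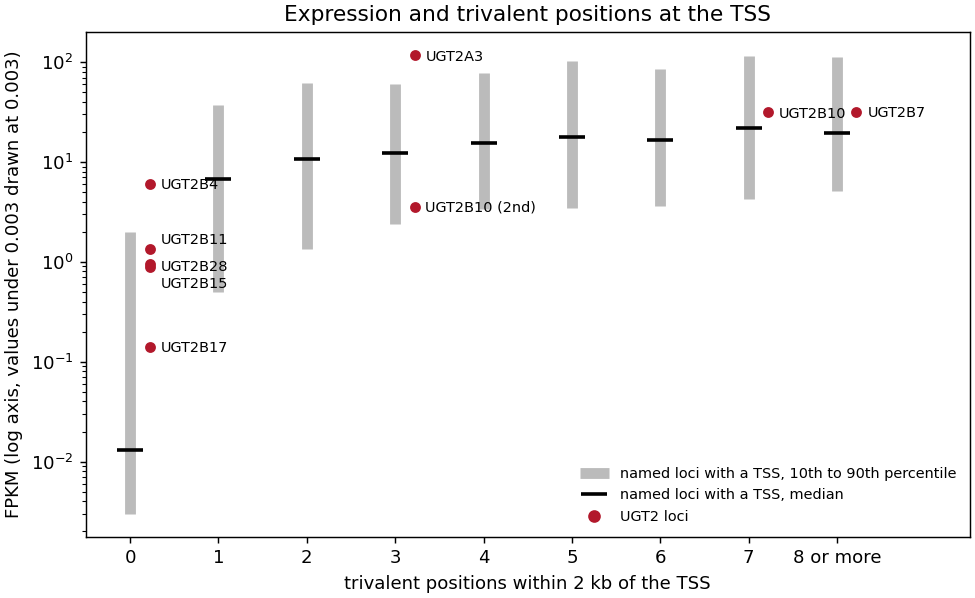
FPKM on a log axis against the number of trivalent positions within 2 kb of the TSS, with the 10th to 90th percentile (grey) and median (black) of the 14031 named loci with a TSS of their own, and the 9 UGT2 loci as points. UGT2A3 (3 trivalent positions) and UGT2B4 (0) lie above the grey bars of their classes. UGT2B7 is counted at the end of its long expression locus, not at its RefSeq start.

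Neighbours of the cluster were low. The 4 unnamed loci inside the region had a mean FPKM of 0.0273 to 0.275, with 0 activation-marked positions in their bodies and 2 repressive ones in 1 of them. TMPRSS11E, a serine protease gene beyond the end next to UGT2B17, had 0.0237 FPKM in run 1 and 0 in run 2, with 2 repressive positions in its body. UGT2A1 and UGT2A2, relatives known from the nasal epithelium that share 1 locus in the table beyond UGT2B4, had 0.0661 and 0.0357, with 1 repressive position at the TSS. SULT1B1, a sulfotransferase gene further out, had 0.357 and 0.548, with 2 activation-marked positions in its body and 0 within 2 kb of its TSS. The high levels were thus found at UGT2A3, UGT2B10 and UGT2B7 and not at the loci around the cluster.

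Other genes of glucuronidation were mostly expressed, but of the other UGT enzyme loci listed only that of the UGT1A genes reached 1 FPKM. Of 15 loci that carry the 24 listed genes, 11 were at 1 FPKM or more, against 48.7% of named loci, and 2 under 0.1. UGDH, which makes UDP-glucuronic acid, was at 193 FPKM, and UGP2, which makes its precursor UDP-glucose, was at 78.9. The conjugate exporter ABCC2 was at 91.4 and SLC35B1, a transporter gene of the SLC35 family, at 66.8. Each of these genes had 5 to 10 activation-marked positions within 2 kb of the TSS. The lowest were UGT3A2, at 0.0168, and UGT2A1 with UGT2A2, at 0.0509. The UGT1A genes, the other large hepatic UGT family, share 1 locus of 9 symbols at 2.39 FPKM, well under UGT2A3, and no TSS was assigned to it.

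Of 22 genes listed as regulators of UGT2 genes, 17 were at 1 FPKM or more and 4 under 0.1, where all named loci stood at 48.7% and 39.8%. The highest were the oxidative stress factor NFE2L2 at 110 FPKM and the liver-enriched factors CEBPA at 71, HNF4A at 69.3 and FOXA1 at 38.9. The intestinal factor CDX1 was listed at 0 in both runs and the estrogen receptor gene ESR1 was at 0.00785. Among 21 genes of other conjugation reactions, 16 were at 1 FPKM or more and 1 under 0.1, led by the steroid sulfotransferase SULT2A1 at 182, GSTA1 at 66.0, SULT1A1 at 65.0 and GSTT1 at 51.3, with SULT2B1 at 0.0551 and SULT1A3 at 0.213 the lowest. GSTA1, like UGT2B4, had no marked position within 2 kb of its TSS.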

How the data were processed

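Nucleosome positions were called by the authors with DANPOS from native MNase-Seq, and NUCLIZE then called ChIP-Seq peaks at those positions under the authors' limits on significance and fold enrichment. Both were deposited as coordinates with identifiers, without counts or scores, so the reads behind each position are unknown. For RNA-Seq, the authors deposited 2 columns of FPKM in a Cuffdiff-like table, and the fold change and p-value columns of their own comparison were not used. The submitters' processing notes name hg19, BWA, Bowtie, TopHat2 2.1.0, HOMER 4.7 and edgeR, without a role for each.

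FPKM was summed over loci of a symbol and averaged over both columns. A peak marked the position whose identifier it carried, and every peak matched a position in this way. A position was near a TSS when its midpoint lay within 2 kb. Loci with shared coordinates or no inferred strand had no TSS. Log differences used a pseudocount of 0.01. Python 3.11.15, pandas 2.3.3, scipy 1.17.1 and Biopython 1.88 were used, and counting was tested on simulated data. Members and lists were chosen with earlier results of these data known. Named genes were the 8 members, named loci in and next to the region, and the 4 highest and 2 lowest of each list. Some listed genes are not reported here. Alternatives were other FPKM limits, pseudocounts, flanks, windows and backgrounds, and matching by overlap in place of identifier. Protein identity was planned and was not analysed here.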

Additional observations from a re-analysis of the deposited data

How the results depend on the processing

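Of 136 alternative values, 114 moved by less than the spread or interval of the reported value, 22 moved further and 0 reversed in sign. Some of the 114 could not have moved further. The FPKM of a single run always lies within the spread used for the mean of both runs. A gene with 1 listed locus repeats its value as its highest single locus. Matching by an overlap of 50% gave the reported shares again, so the 114 are not all separate checks. With an FPKM limit of 0.1 in place of 1, 8 genes in place of 5 were called expressed. With a pseudocount of 1 in place of 0.01, the log2 difference between UGT2A3 and UGT2B17 was 6.69 in place of 9.59. With peaks matched by an overlap of 1 bp in place of identifiers, 4.32% of positions in place of 3.72% carried a mark. Against chromosome 4 alone, the H3K27ac ratio was 8.13 in place of 4.7 and the H3K4me3 ratio 2.40 in place of 1.34. Within 1 kb of the TSS, UGT2A3 had 1 trivalent position in place of 3 and UGT2B7 3 in place of 8, fewer than the 6 of UGT2B10. Most of the others were percentiles of a level among another set of loci, such as that of UGT2B17, which was 2.97 among named loci from 0.1 FPKM in place of 41.6. Each shift follows from the construction of its setting. No paired analysis was possible because each assay has 1 sample.

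Without replicates, error between cultures is unknown. Peak lists without scores allow no stricter threshold. An unmarked position is one without a peak in the deposited lists, whatever its reads.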
